A study of Mus musculus with 24 samples.

Results

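Dermal fibroblasts from D2 mice after transient activation of beta-catenin in the epidermis were compared with dermal fibroblasts of wild type mice in telogen, the resting phase of the hair cycle. The comparison takes 6 of the 24 arrays of the series, 3 transient and 3 telogen, chosen by their sample titles, and all 45037 probe sets of the array that are not controls. The transient group is labelled D2 and anagen, the growing phase of the hair cycle, and the telogen group wild type. Both groups come from mice of a C57BL/6 CBA mixed background, and both are GFP+ cells sorted by flow cytometry from back skin, 1 mouse per array, with mice numbered 2, 3 and 4 in each group. The title of the series gives its question, how epidermal activation of beta-catenin reprograms the dermis. As background, the D2 transgene is a stabilised beta-catenin joined to part of the estrogen receptor, is driven by the Krt14 promoter in keratinocytes, and becomes active on treatment with a tamoxifen derivative. The labels give no age, dose, duration or gate for the GFP reporter, and no untreated D2 and no treated wild type group is used here, so genotype and activation cannot be told apart.

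The dermal papilla is a small cluster of specialised fibroblasts at the base of the hair follicle, surrounded by epithelial cells, and it sends the signals that start and sustain hair growth. Canonical Wnt signalling through beta-catenin and Hedgehog signalling from the follicle epithelium pass between epithelium and papilla as a follicle enters anagen. Both pathways induce their own inhibitors, so that Wnt antagonists and Hedgehog-binding receptors are found among papilla genes. During anagen the follicle grows down through the dermis and its base is remodelled together with the surrounding matrix.

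Values are in log2 units, in which a difference of 1 is a doubling, and differences are transient minus telogen with the standard error of the limma fit after the sign ±. A probe set or gene is said to have risen or fallen where its Benjamini-Hochberg adjusted p over the 45037 probe sets is under 0.05. Array medians were 4.63 to 4.77 in transient and 4.34 to 4.51 in telogen dermis, and the mean correlation of an array with the others of its group was 0.9 to 0.906, so no array of either group stood apart. Of the 45037 probe sets 220 passed (0.488%), 173 higher (0.384%) and 47 lower (0.104%), and 6378 had an unadjusted p under 0.05. Gene names were available for 146 of the 220. Taking 1 probe set for each of the 4560 named genes, 86 passed (1.89%), 65 higher (1.43%) and 21 lower (0.461%), and the 3 transient and 3 telogen arrays of all 86 did not overlap. Over the named genes 15% had 3 transient arrays above all telogen arrays and 17.9% had them below, and the median difference was -0.06, against 0.13 over all probe sets. Of the 220 calls 78.6% were higher, a share of 54.1% when each array was centred on its median and of 67.5% after quantile normalization. The spread was estimated over all 12 dermal arrays, and when limma was given the 6 arrays alone 0 probe sets passed, with 4861 at an unadjusted p below 0.05. The count also depended on single arrays: without telogen mouse 2, 3 or 4 it was 52, 415 and 117, and without transient mouse 3 or 4 it was 71 and 66. In the authors' deposited table of dermal genes 788 probe sets are listed for this pair, and 143 of the 220 are among them, all with the same direction, which is 65.0% of the calls and 18.1% of that table.

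The sort matched its label. Collagen and fibroblast genes were among the brightest of the array, with Col1a1 at 12.37, 12.28 and 12.33 in transient and 12.49, 12.2 and 12.27 in telogen dermis. The summed linear signal of 15 fibroblast markers was 42422 to 47155 in transient and 41024 to 46696 in telogen dermis, and 0 of the 15 passed. Signal of other cell types was present at a lower level. Keratinocyte markers (12 named, 0 passed) summed to 1046 to 1958 in transient and 901 to 1457 in telogen dermis, against 18141 to 21621 in transient epidermis. Hair follicle keratin and inner root sheath genes, which mark the epithelium of a growing follicle, differed more. The 9 that are named, of 35 listed, summed to 420 to 980 in transient and 108 to 158 in telogen dermis. One of the 9 is Lef1, which is not a keratin and is also on the list of dermal papilla genes used below. Lef1 averaged 8.14 in transient and 6.51 in telogen dermis, and it made up most of the telogen sums. For 7 of the 9 all transient arrays lay above all telogen arrays, where 15% of named genes did so, and 0 passed. The median difference of the 9 was 2.86. Krtap8-1, a hair shaft protein, was at 5.72, 8.47 and 6.68 in transient and 0.59, -0.56 and -0.18 in telogen dermis (7.01 ± 1.38, limma adjusted p = 0.0664). Its transient arrays all lay above the telogen arrays, and in epidermis its means were 7.26 in transient and -1.41 in telogen arrays. The sums of macrophage markers went the other way, with 411 to 744 in transient and 980 to 1455 in telogen dermis over 19 genes, of which 0 passed. Of the 19, 3 had all transient arrays below all telogen arrays, where 17.9% of named genes did, so this count is near that share. Ms4a7, Cx3cr1, Fcgr3 and C1qc had differences of 1.14, 0.86, 0.28 and 0.21, and the other members were below 0, with a median of -0.8 over the list. The part that these cells have in the results below was not tested, and in a bulk sort fewer cells of a type and less RNA per cell cannot be told apart. Esr1, part of which the transgene carries, had 3 probe sets with dermal differences of -0.26, -0.21 and -0.14, none past the threshold. In epidermis 1 of these probe sets averaged 9.57 in transient and 5.6 in telogen arrays (3.97 ± 0.57, limma adjusted p = 0.018). The others went the other way there, with differences of -1.84 ± 0.65 and -1.16 ± 0.35, neither past the threshold (limma adjusted p = 0.195 and 0.146).

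**Figure D1:**
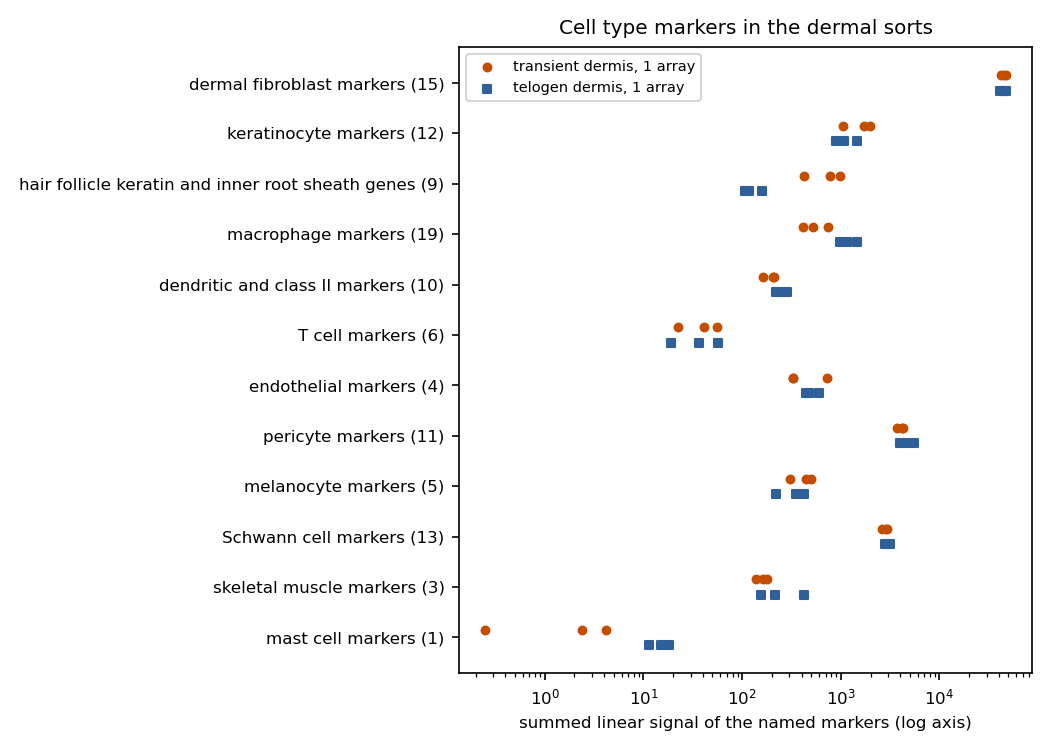
Summed linear signal of the named markers of each cell type, on a log axis, with the number of named markers in brackets; each point is 1 array, transient dermis above telogen dermis. Fibroblast sums lie together at 41024 to 47155, hair follicle keratin and inner root sheath sums are higher in all 3 transient arrays, and macrophage sums are lower in all 3.

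Dermal papilla genes were the list with the most members past the threshold. Of 47 papilla genes listed 33 were named, since names came only from the authors' tables of regulated genes. The list was also written with earlier results of these data known, so its counts describe it and are not a test. Of the 33 named papilla genes 8 rose and 0 fell, where 1.43% of all named genes rose. The 3 transient arrays lay above the 3 telogen arrays for 25 of the 33, where 15% of named genes did so, and below them for 0. The median difference of the list was 1.61, with 1.33 after centring each array on its median and 1.45 after quantile normalization. The count of members past the threshold was 3, 4 and 4 without telogen mouse 2, transient mouse 3 and transient mouse 4, and 0 in the fit of 6 arrays. The hair follicle keratin sums given above moved with this list, but Lef1 is a member of both, so the agreement is in part built in.

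The promoters of 3 of these genes are shown because these genes rose together. In promoters, letters bound by beta-catenin partners or Hedgehog factors can be looked for. The promoter of Nrp2, which rose but is not on the papilla list, is shown as an example that holds such letters. Each promoter runs from 250 bases before to 50 bases after the annotated start, on the strand of the gene, from RefSeq on GRCm38.p6. Windows were found for 44 of the 65 genes that rose and 16 of the 21 that fell. Capitals mark a match to CTTTGAT or CTTTGAA, the letters bound by TCF/LEF factors, searched on both strands.
Corin, chr5:72504491-72504790, minus strand: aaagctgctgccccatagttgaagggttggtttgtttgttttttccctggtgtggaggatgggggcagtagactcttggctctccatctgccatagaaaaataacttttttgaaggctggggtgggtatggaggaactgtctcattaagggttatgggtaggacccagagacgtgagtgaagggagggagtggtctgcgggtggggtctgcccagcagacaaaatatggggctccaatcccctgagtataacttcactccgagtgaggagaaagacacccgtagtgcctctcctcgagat
Cxcr4, chr1:128592250-128592549, minus strand: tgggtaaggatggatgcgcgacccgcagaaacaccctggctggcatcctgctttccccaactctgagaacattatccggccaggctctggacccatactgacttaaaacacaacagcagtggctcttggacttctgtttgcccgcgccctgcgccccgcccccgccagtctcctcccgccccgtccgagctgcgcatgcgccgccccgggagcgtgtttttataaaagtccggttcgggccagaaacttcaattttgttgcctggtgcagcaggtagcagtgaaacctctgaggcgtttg
Hhip, chr8:80057959-80058258, minus strand: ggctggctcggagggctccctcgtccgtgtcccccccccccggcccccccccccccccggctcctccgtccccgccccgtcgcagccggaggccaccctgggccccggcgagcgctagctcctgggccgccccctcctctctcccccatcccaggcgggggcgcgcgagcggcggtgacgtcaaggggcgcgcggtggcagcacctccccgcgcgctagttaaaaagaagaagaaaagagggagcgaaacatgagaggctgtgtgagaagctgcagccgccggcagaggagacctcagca
Nrp2, chr1:62703067-62703366, plus strand: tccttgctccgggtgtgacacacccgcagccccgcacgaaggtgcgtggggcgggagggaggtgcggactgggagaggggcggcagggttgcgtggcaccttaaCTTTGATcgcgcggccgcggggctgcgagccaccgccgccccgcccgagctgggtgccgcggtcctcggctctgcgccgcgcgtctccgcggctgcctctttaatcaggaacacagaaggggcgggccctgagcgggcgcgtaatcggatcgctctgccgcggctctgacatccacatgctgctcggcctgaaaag
The first 3 windows hold no match, and that of Nrp2 holds CTTTGAT starting 146 bases before the start. The windows of the papilla genes Itga9, Rgs2 and Wif1 and of the Wnt antagonist genes Frzb and Dkk2, not shown, hold no match either. Some genes have several annotated starts, so the 44 genes that rose have 51 windows and the 16 that fell have 19. Such letters were in 6 of the 51 windows (11.8%), from 5 genes, Fam83d, Gpr62, Kif26b, Nrp2 and Steap2, the last in a pair of overlapping windows. Among the 19 windows of genes that fell 3 held them (15.8%), those of Clca2, Ppa1 and Rnase10. Of all 32851 promoter windows of the same length 2842 held them (8.65%). The GLI letters GACCACCCA, searched on both strands, were in 0 of the 51 and 0 of the 19 windows and in 83 of all windows (0.253%).

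Rspo2, a secreted agonist that strengthens Wnt signalling and is made by papilla cells, was at 5.02, 6.57 and 6.7 in transient and -2.1, -2.43 and -2.38 in telogen dermis. All transient arrays were far above all telogen arrays, whose values lie below their own arrays' 5th percentile (-0.96 to -0.9). The size of the rise is therefore not stated (limma adjusted p = 0.00522; 16.2-fold in the authors' deposited table). Sustained dermis held 4.78, 5.69 and 8.03 and neonatal dermis 4.51, 4.62 and 5.07. Telogen was thus the low state of the 4.

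Corin, a transmembrane serine protease that marks the papilla, had values of 7.61, 8.15 and 8.86 in transient and 2.03, 2.87 and 2.52 in telogen dermis. The groups did not overlap, and the telogen arrays read the gene only weakly. The difference was 5.73 ± 0.56 (limma adjusted p = 0.00523) and passed in 13 of 15 alternatives. Cxcr4, the receptor of the chemokine Cxcl12, was at 10.23, 10.96 and 11.49 in transient and 7.08, 7.2 and 7.71 in telogen dermis. It was well measured in both groups, without overlap. Its rise of 3.56 ± 0.32 (limma adjusted p = 0.00522) also passed in 13 of 15 alternatives, the other 2 being those that called no probe set.

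Itga9, an integrin subunit that binds tenascin, was at 7.19, 7.4 and 7.3 in transient and 5.43, 5.83 and 5.51 in telogen dermis. Its arrays lay close together within each group, and it rose by 1.71 ± 0.25 (limma adjusted p = 0.0261). Rgs2, which shortens signalling through G proteins, had 8.75, 9.56 and 8.59 in transient and 6.83, 7.37 and 7.2 in telogen dermis. Its groups did not overlap, it rose by 1.83 ± 0.31 (limma adjusted p = 0.0388), and its 2 other probe sets passed as well, with differences of 1.87 and 1.77.

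Among the 25 papilla genes that did not pass, differences ran from -0.66 for Igfbp3, which binds insulin-like growth factors, to 3.1 for Scube3. Scube3, a secreted protein of the papilla, was at 7.54, 8.5 and 9.55 in transient and 5.25, 5.25 and 5.79 in telogen dermis, without overlap (3.1 ± 0.58, limma adjusted p = 0.0584). Inhba, which encodes a subunit of activin, had 9.46, 10.24 and 10.78 in transient and 8.0, 7.94 and 7.64 in telogen dermis, again without overlap (2.3 ± 0.45, adjusted p = 0.0646). The growth factor gene Fgf10 differed by 1.09, the transcription factor gene Tbx18 by 0.38 and the matrix proteoglycan gene Vcan by 0.01, none past the threshold.

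**Figure D2:**
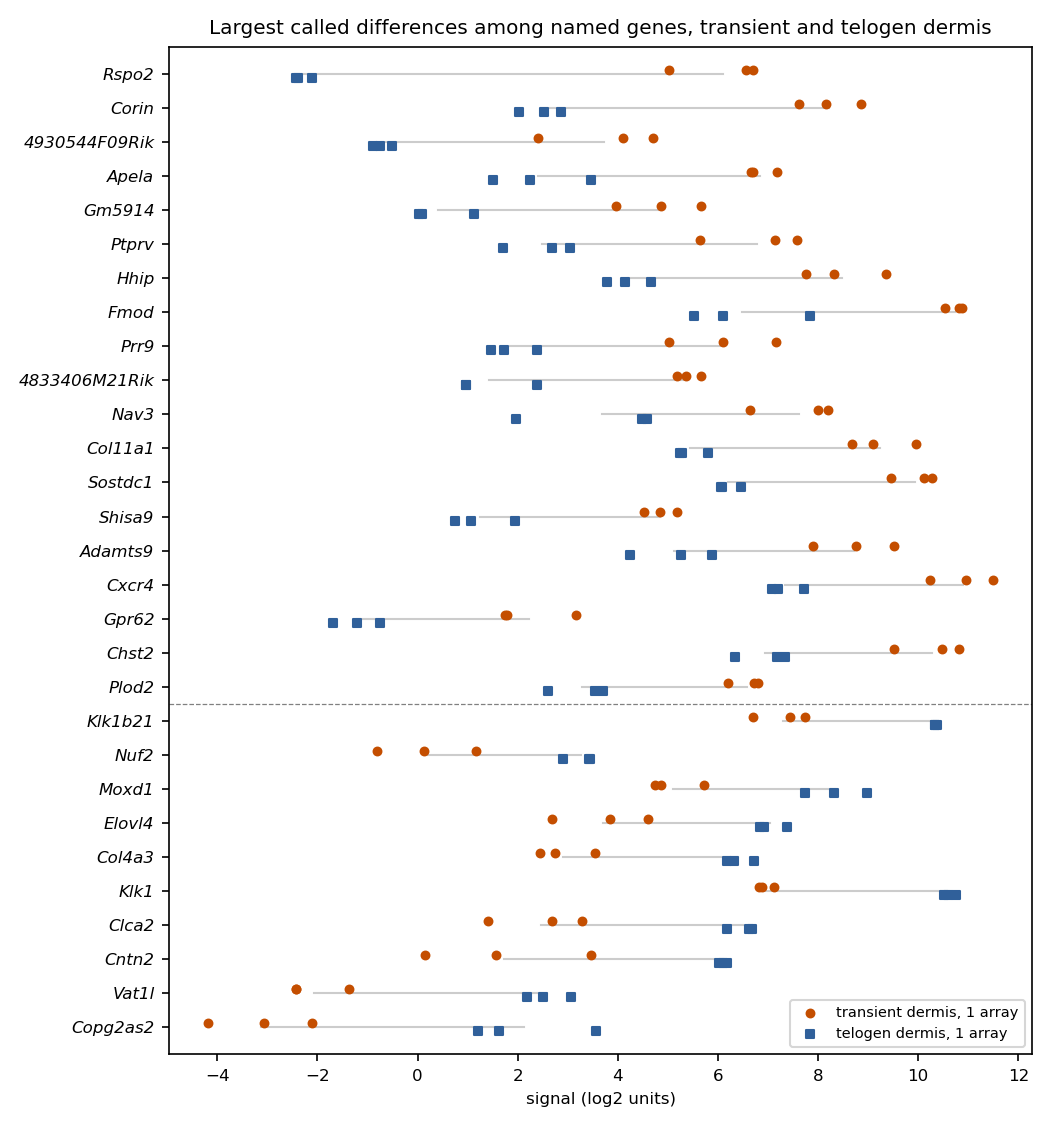
Signal in log2 units on each of the 3 transient (circles) and 3 telogen (squares) dermal arrays for 19 of the 20 highest and, under the dashed line, the 10 lowest differences among named genes that passed the threshold; grey lines join the group means. Circles and squares of a gene never overlap, and Rspo2, Gpr62, Vat1l and Copg2as2 have 1 group below the 5th percentile of its arrays.

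Within the list of Wnt ligands, receptors and modulators the genes that rose were 1 agonist and 4 antagonists, all secreted. Of 30 named Wnt ligands, receptors and modulators 5 rose (Rspo2, Sostdc1, Wif1, Frzb and Dkk2) and 0 fell, where 1.43% of named genes rose. The median difference of the list was 0.41, and the count was 2 without telogen mouse 2, transient mouse 3 or transient mouse 4. Of 22 named Wnt target genes 1, Wif1, rose, and the median was 0.25. Sostdc1, which inhibits both Wnt and BMP signalling, was at 9.45, 10.11 and 10.27 in transient and 6.08, 6.46 and 6.07 in telogen dermis. The groups did not overlap and the difference was 3.74 ± 0.5 (limma adjusted p = 0.0188). Frzb, a decoy receptor that binds Wnt proteins, had 7.28, 7.53 and 8.03 in transient and 4.44, 4.96 and 4.34 in telogen dermis. No array of 1 group reached the other, and its second probe set passed as well (4.29), beside 3.04 ± 0.28 for the first (limma adjusted p = 0.00522).

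Wif1, another secreted protein that binds Wnts, was at 9.89, 9.7 and 10.68 in transient and 6.94, 5.94 and 7.75 in telogen dermis. Telogen arrays spread over more than 1 log2 unit but stayed below all transient arrays, and the rise of 3.22 ± 0.55 (limma adjusted p = 0.0424) passed in 5 of 15 alternatives. Dkk2, an inhibitor that acts on the Wnt co-receptors, was bright in both groups, with 10.95, 11.15 and 11.4 in transient and 10.04, 9.97 and 9.84 in telogen dermis. Its difference was the smallest of the 65 rises, at 1.21 ± 0.22 (limma adjusted p = 0.0492), and it passed in 4 of 15 alternatives. Frat2, outside the list, encodes an activator of the Wnt pathway that binds the kinase GSK3. It was at 7.13, 8.36 and 7.99 in transient and 5.05, 5.74 and 5.57 in telogen dermis, without overlap (2.38 ± 0.37, limma adjusted p = 0.032).

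Several further genes of the pathway did not pass the threshold. Rspo4, an agonist related to Rspo2, had 9.33, 9.34 and 9.54 in transient and 6.6, 8.4 and 6.57 in telogen dermis. Telogen mouse 3 lay nearer to the transient arrays than the other telogen mice did, and the difference of 2.21 ± 0.47 had a limma adjusted p of 0.082. Lef1, a transcription factor that acts with beta-catenin, was at 7.43, 8.26 and 8.72 in transient and 6.36, 6.34 and 6.82 in telogen dermis. Its groups did not overlap (1.63 ± 0.35, limma adjusted p = 0.0853). Lgr5, a Wnt target and receptor of the Rspo proteins, was weak, at 4.72, 5.4 and 4.41 in transient and 1.51, 3.97 and 2.19 in telogen dermis (2.29 ± 0.57, adjusted p = 0.124). The Wnt gene differences were 1.02 for Wnt6, 0.74 for Wnt5b, 0.11 for Wnt10a, -0.09 for Wnt4, -0.59 for Wnt10b and -1.63 for Wnt16, none past the threshold.

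Of 12 named Hedgehog genes 1, Hhip, rose and 0 fell, where 1.43% of named genes rose. The median difference was 0.7, and the count was 0 without telogen mouse 2. Hhip, which binds and sequesters Hedgehog ligands, was at 7.76, 8.32 and 9.36 in transient and 4.15, 3.78 and 4.66 in telogen dermis. The nearest arrays of the groups were more than 3 log2 units apart. It rose by 4.29 ± 0.52 (limma adjusted p = 0.0121), and its 3 other probe sets passed with differences of 4.13, 5.19 and 5.74.

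Ptch1, the main Hedgehog receptor and itself a target, had 9.14, 9.68 and 10.74 in transient and 8.74, 8.29 and 9.01 in telogen dermis. Its 3 probe sets differed by 1.18, 2.56 and 3.46, none past the threshold (limma adjusted p = 0.211, 0.181 and 0.125). The transcription factor genes Gli1, Gli2 and Gli3 differed by 2.02, 0.07 and -0.2. Scube1, a secreted protein related to Scube3, was at 4.61, 6.86 and 6.49 in transient and 2.86, 2.64 and 1.32 in telogen dermis (3.71 ± 0.73, adjusted p = 0.0676). Shh, the ligand made by the follicle epithelium, read -0.64, 1.9 and 3.51 in transient and 0.09, -1.08 and -1.44 in telogen dermis, and here the groups overlapped.

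**Figure D3:**
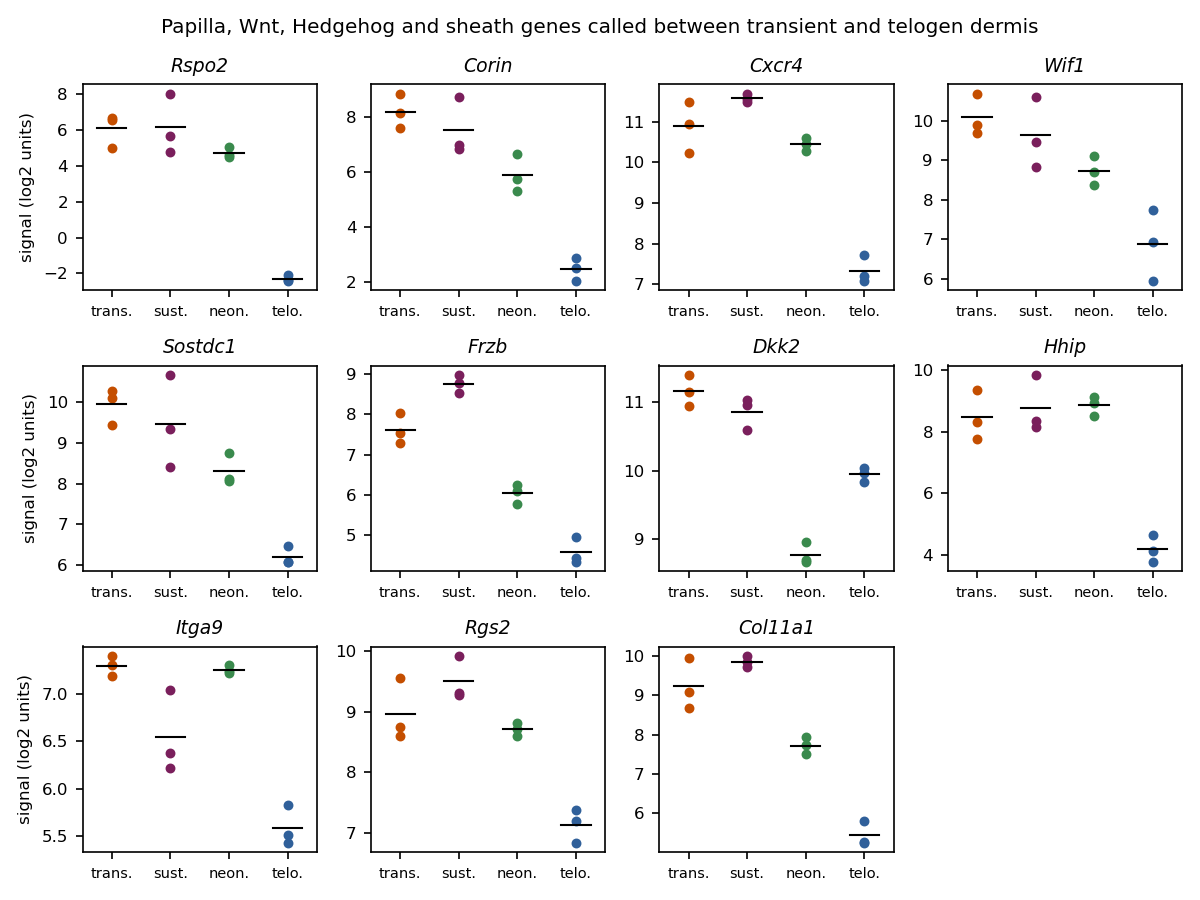
Signal in log2 units of 11 papilla, Wnt, Hedgehog and sheath genes that passed the threshold, on the 3 arrays each of transient, sustained, neonatal and telogen dermis; points are arrays and bars are means. Telogen is the lowest state for each gene shown but Dkk2, whose neonatal arrays are at 8.67 to 8.96.

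Other signalling lists gave few calls, where 1.43% of all named genes rose. Gdf10, a member of the TGF-beta family, was the 1 gene of 25 BMP and TGF-beta genes that rose. It had 6.74, 7.29 and 8.5 in transient and 4.32, 4.79 and 5.12 in telogen dermis, without overlap (2.77 ± 0.45, limma adjusted p = 0.0385). Bmp6, a ligand of the same family, had 6.31, 7.4 and 8.76 in transient and 5.6, 5.48 and 3.91 in telogen dermis, and its spread left it short of the threshold (2.5 ± 0.71, limma adjusted p = 0.164). Pmepa1, which dampens TGF-beta signalling, was bright at 10.54, 10.83 and 11.15 in transient and 8.93, 9.51 and 9.18 in telogen dermis. The groups were separate and it rose by 1.63 ± 0.26 (limma adjusted p = 0.038). Apela, a peptide ligand of the apelin receptor, was at 6.7, 6.67 and 7.18 in transient and 2.24, 3.47 and 1.5 in telogen dermis. All transient arrays were above all telogen arrays (4.45 ± 0.44, limma adjusted p = 0.00523).

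No call was made among 5 Notch genes (median 0.91), 36 growth factors and their receptors (-0.32) or 35 developmental transcription factors. Nrp2, a receptor of semaphorins and vascular growth factors, was 1 of 24 axon guidance genes that rose. It had 10.17, 10.15 and 10.24 in transient and 9.03, 8.9 and 8.66 in telogen dermis, with no overlap (1.32 ± 0.19, limma adjusted p = 0.0268). Sema3g, a class 3 semaphorin that lies outside the list, was at 8.92, 9.83 and 10.46 in transient and 6.29, 7.26 and 6.73 in telogen dermis (2.97 ± 0.38, adjusted p = 0.0146). Ednrb, an endothelin receptor, was the 1 gene of 30 ion channels and neurotransmitter receptors that rose, and it is also on the melanocyte list. It had 7.08, 6.68 and 7.3 in transient and 5.38, 4.6 and 3.57 in telogen dermis (2.5 ± 0.42, limma adjusted p = 0.0393). The 5 named melanocyte markers summed to at most 493 in transient and 422 in telogen dermis. Dusp4, a phosphatase that switches off MAP kinases, rose among 25 immediate early and stress genes, with 7.73, 6.94 and 8.03 in transient and 4.83, 2.96 and 5.07 in telogen dermis (3.28 ± 0.52, adjusted p = 0.0367).

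**Figure D4:**
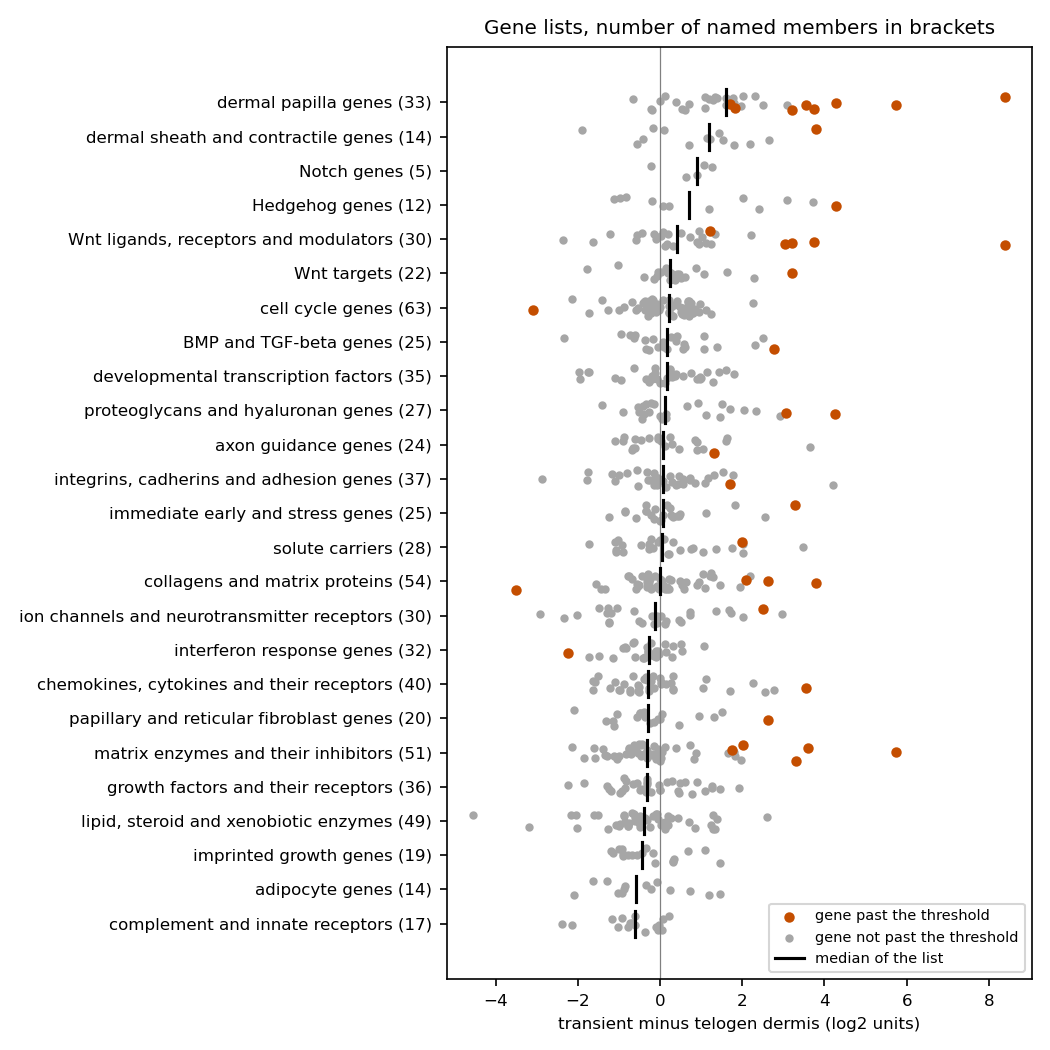
Transient minus telogen difference in log2 units of each named member of 25 gene lists, ordered by the median (black bar); orange points passed the threshold and grey points did not. Dermal papilla genes have the highest median, 1.61, and complement and innate receptors the lowest, -0.62; the size for Rspo2 rests on telogen values below the 5th percentile.

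In the matrix, single genes rose while the main collagens did not move. Of 54 named collagens and matrix proteins 3 rose (Col11a1, Mgp and Col8a1) and 1, Col4a3, fell, where 1.43% of named genes rose and 0.461% fell. The median was 0.01. Col11a1, a minor fibrillar collagen that is also on the list of sheath genes, was at 8.68, 9.09 and 9.95 in transient and 5.8, 5.25 and 5.28 in telogen dermis. The groups lay almost 3 log2 units apart at their nearest arrays, it rose by 3.8 ± 0.33 (limma adjusted p = 0.00522), and its second probe set gave 3.53 and also passed. Mgp, which inhibits calcification, had 9.17, 10 and 9.19 in transient and 6.24, 7.09 and 7.16 in telogen dermis. It rose by 2.62 ± 0.44 (limma adjusted p = 0.0388), and it was at 5.57, 6.05 and 6.46 in sustained and 4.17, 4.81 and 5.63 in neonatal dermis, below every transient array. Col8a1, a short-chain collagen, was at 8.61, 8.56 and 9.24 in transient and 6.83, 6.27 and 7.01 in telogen dermis (2.1 ± 0.31, adjusted p = 0.0268).

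Col4a3, a basement membrane collagen, was at 2.74, 3.54 and 2.45 in transient and 6.72, 6.33 and 6.19 in telogen dermis. It fell by 3.51 on the log2 scale with a standard error of 0.47 (limma adjusted p = 0.0183). By contrast Col1a2, Col3a1 and Sparc differed by 0.02, 0.0 and 0.05. Of 27 proteoglycan and hyaluronan genes Fmod and Kera rose and 0 fell, where 1.43% of named genes rose. Fmod, which binds collagen fibrils, had 10.53, 10.81 and 10.87 in transient and 5.52, 7.83 and 6.1 in telogen dermis. Telogen mouse 3 was the highest of its group and was still below every transient array. The difference was 4.25 ± 0.55 (limma adjusted p = 0.016), and 5 other probe sets of Fmod all passed, with differences of 4.12 to 6.02. Kera, a related proteoglycan best known from the cornea, was at 8.27, 8.85 and 9.24 in transient and 4.54, 6.61 and 6.03 in telogen dermis (3.06 ± 0.52, adjusted p = 0.0401).

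Matrix enzymes gave 5 rises in a list whose median was below 0. Of 51 named members Corin, Adamts9, Plod2, Cpxm2 and Mmp11 rose and 0 fell, where 1.43% of named genes rose, and the median was -0.31. All transient arrays lay above the telogen arrays for 9 members and below them for 16, where 15% and 17.9% of named genes did so. The count of rises was 2 without telogen mouse 2, transient mouse 3 or transient mouse 4. Adamts9, a protease that cleaves versican, was at 7.89, 8.75 and 9.52 in transient and 5.27, 4.25 and 5.88 in telogen dermis. No overlap was seen (3.59 ± 0.49, limma adjusted p = 0.019). Plod2, which hydroxylates lysines for collagen cross-links, had 6.2, 6.81 and 6.72 in transient and 2.6, 3.55 and 3.7 in telogen dermis, again without overlap (3.3 ± 0.32, limma adjusted p = 0.00523). Mmp11, a metalloproteinase of stromal cells, was at 10.47, 11.03 and 11.43 in transient and 8.87, 9.68 and 9.09 in telogen dermis (1.76 ± 0.29, adjusted p = 0.0388). Tgm2, which cross-links proteins, did not pass, with 8.75, 9.0 and 8.02 in transient and 10.61, 9.99 and 10.72 in telogen dermis (-1.86 ± 0.45, adjusted p = 0.116).

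Genes of the dermal sheath, the cup of smooth muscle-like cells round the follicle, gave 1 rise among 14 named members, the collagen gene Col11a1, and a median of 1.19, and the contractile genes of the list did not pass. The share of the list with all transient arrays above all telogen arrays was 8 of 14, against 15% of named genes. Tagln, an actin-binding protein of smooth muscle, had 6.22, 7.17 and 7.32 in transient and 3.93, 5.75 and 4.41 in telogen dermis (2.2 ± 0.48, limma adjusted p = 0.0851). Myocd, the coactivator that drives smooth muscle genes, was at 4.91, 4.49 and 5.46 in transient and 3.7, 2.88 and 2.85 in telogen dermis (1.81 ± 0.33, adjusted p = 0.0526). Neither gene's groups overlapped. Outside all lists, Coch, a secreted matrix protein, was among the brightest genes to rise, with 11.91, 12.11 and 12.31 in transient and 8.9, 10.04 and 9.41 in telogen dermis (2.66 ± 0.31, limma adjusted p = 0.0103). Chst2, a sulfotransferase for glycan chains, had 9.52, 10.47 and 10.82 in transient and 6.35, 7.17 and 7.34 in telogen dermis. It rose by 3.32 ± 0.36 (limma adjusted p = 0.00789) and, like the pseudokinase gene Trib2 (3.1 ± 0.29, adjusted p = 0.00522) and the kinesin gene Kif26b (3.25 ± 0.37, adjusted p = 0.00891), passed in 13 of 15 alternatives.

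Genes that fell formed no listed group. Klk1, a tissue kallikrein that releases kinins, was at 6.83, 6.89 and 7.11 in transient and 10.75, 10.52 and 10.6 in telogen dermis. Arrays of a group lay close together and the groups did not overlap. It fell by 3.68 on the log2 scale with a standard error of 0.5 (limma adjusted p = 0.0187), and its second probe set gave -3.8. Klk1b21, a close paralog, had 6.71, 7.74 and 7.43 in transient and 10.34, 10.38 and 10.33 in telogen dermis (-3.06 ± 0.41, limma adjusted p = 0.0187). Kallikreins of this family are near-identical in sequence, and 1 of the Klk1 probe sets is of the kind that matches several transcripts, so signal may be shared between them.

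Moxd1, a monooxygenase of the secretory pathway, had 4.74, 5.73 and 4.86 in transient and 8.31, 7.73 and 8.98 in telogen dermis. The groups did not overlap (-3.23 ± 0.46, limma adjusted p = 0.0248). Elovl4, which elongates very long chain fatty acids, was at 4.61, 2.68 and 3.84 in transient and 7.37, 6.84 and 6.92 in telogen dermis. Both of its probe sets passed, with differences of -3.33 ± 0.42 and -3.46 ± 0.41 (limma adjusted p = 0.014 and 0.0118), whereas sustained dermis held 6.68, 6.88 and 6.93. Clca2, a membrane protein linked to chloride conductance, had 1.41, 2.69 and 3.28 in transient and 6.62, 6.68 and 6.19 in telogen dermis (-4.04 ± 0.49, adjusted p = 0.012). Transient values of Clca2 and Elovl4 reach into the weak range, where sizes are imprecise.

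Cntn2, an adhesion molecule of axons, was at 1.57, 3.47 and 0.14 in transient and 6.11, 6.03 and 6.19 in telogen dermis, with the transient arrays widely spread (-4.38 ± 0.72, limma adjusted p = 0.038). Nuf2, a kinetochore protein, was the 1 gene of 63 cell cycle genes that passed. It had -0.82, 0.12 and 1.16 in transient and 3.43, 3.45 and 2.9 in telogen dermis, weak in both groups (-3.1 ± 0.43, adjusted p = 0.0217). The other 62 did not pass, and the median of the list was 0.21, or -0.08 with quantile normalization or arrays centred on their median. Mx1, an antiviral protein, was the 1 of 32 interferon response genes that fell, with 4.71, 4.63 and 3.71 in transient and 6.43, 7.04 and 6.31 in telogen dermis (-2.25 ± 0.39, adjusted p = 0.0441). The secreted kinase gene Pkdcc fell by 2.71 on the log2 scale (standard error 0.44, adjusted p = 0.038), with 7.11, 6.05 and 5.23 in transient and 9.03, 8.39 and 9.12 in telogen dermis.

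Complement and innate receptor genes had the lowest median of the 25 lists plotted above. None of 17 complement and innate receptor genes passed, 8 of them had all transient arrays below all telogen arrays (17.9% of named genes did), and the median was -0.62. Complement C3 was at 10.74, 10.3 and 9.48 in transient and 11.24, 11.0 and 11.34 in telogen dermis (-1.02 ± 0.43, limma adjusted p = 0.332). Among 40 chemokine, cytokine and receptor genes Cxcr4 alone passed, and 11 had all transient arrays below, where 17.9% of named genes did. The chemokine gene Cxcl14 had 7.22, 7.76 and 8.16 in transient and 4.91, 4.78 and 5.15 in telogen dermis (2.77 ± 0.51, limma adjusted p = 0.0537). The macrophage sums given above moved with these lists, but C1qb and C1qc are on both the macrophage and the complement list. Csf1r, the receptor that defines macrophages, was at 8.74, 8.03 and 6.78 in transient and 9.44, 9.35 and 9.29 in telogen dermis (-1.51 ± 0.58, adjusted p = 0.288).

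Metabolic and growth lists gave 0 calls: 14 adipocyte genes (median -0.59), 49 lipid, steroid and xenobiotic enzymes (-0.38) and 19 imprinted growth genes (-0.45). Igf2, the imprinted growth factor, was at 5.92, 6.79 and 6.5 in transient and 4.93, 5.13 and 4.72 in telogen dermis. Its groups were separate by under 1 log2 unit (1.47 ± 0.4, limma adjusted p = 0.151). The adipocyte genes Cd36 and Pparg differed by -2.1 and -1.62, and Cebpa by 1.47, none past the threshold. Of 28 solute carriers Slc5a3, which imports inositol, rose, with 8.06, 8.55 and 8.26 in transient and 5.96, 6.71 and 6.18 in telogen dermis (2.0 ± 0.33, limma adjusted p = 0.0388), and its 2 other probe sets passed too. Of 20 papillary and reticular fibroblast genes Mgp was the 1 that rose, and 0 fell.

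The epidermal arrays of the same states are separate sorts, so they bear on whether the dermal changes were shared. The array of transient epidermal mouse 4 stood apart, with a median of 5.5 against 4.97 and 4.98 in the other transient epidermal arrays and a mean correlation of 0.82 with them, so values without it are given too. In epidermis 380 probe sets passed (0.844%), and of the named genes 125 rose (2.74%) and 45 fell (0.987%). Without transient mouse 4, chosen after seeing the data, 162 probe sets passed. Of the 65 genes that rose in dermis 4 rose in epidermis, Gdf10, Prr9, Pmepa1 and Fblim1, and 0 fell; without that mouse Pmepa1 and Fblim1 passed (limma adjusted p = 0.0331 and 0.0478) and Gdf10 and Prr9 did not (0.0715 and 0.0878). Gdf10 had 7.83, 8.27 and 9.07 in transient and 4.27, 4.93 and 4.98 in telogen epidermis (3.66 ± 0.58, limma adjusted p = 0.027). Prr9, a proline-rich protein of the epidermal differentiation cluster, was at 5.56, 5.9 and 6.19 in transient and 0.22, 2.49 and 2.73 in telogen epidermis (4.07 ± 0.71, adjusted p = 0.0352). The dermal Prr9 values were 5.03, 7.16 and 6.1 in transient and 1.46, 2.38 and 1.72 in telogen arrays, close to the epidermal ones. Over the 65 genes the median difference was 2.77 in dermis, by which they were chosen, and 0.32 in epidermis, also without that mouse, against -0.07 over all named genes there.

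The difference between the compartments was tested as an interaction over all 24 arrays, in which 446 probe sets (0.99%) and 189 named genes (4.14%) passed. Of the 65 genes 27 had a larger difference in dermis by that test and 0 a smaller one, and of the 21 genes that fell in dermis 8 passed, all lower in dermis. Without transient epidermal mouse 4 270 probe sets passed, with 15 of the 65 genes and 8 of the 21. The dermal difference of these genes was part of how they were chosen, so these counts describe them and are not set against 4.14%. Sostdc1 had 10.46, 10.65 and 11.11 in transient and 10.97, 11.32 and 11.33 in telogen epidermis. It was thus high in epidermis in both states, and its dermal minus epidermal difference was 4.2 ± 0.61 (limma adjusted p = 0.00453). Adamts9 was at 5.52, 5.84 and 6.02 in transient and 6.18, 6.5 and 6.68 in telogen epidermis (interaction 4.25 ± 0.57, limma adjusted p = 0.00323). Hhip was at most 5.09 in transient and 3.92 in telogen epidermis, and its interaction was 3.61 ± 0.67 (limma adjusted p = 0.0137). Without that mouse Sostdc1, Adamts9 and Hhip still passed, at 4.06, 4.27 and 3.96 (limma adjusted p = 0.0103, 0.00702 and 0.0141).

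For Corin, Cxcr4 and Rspo2 the compartments were not shown to differ. Cxcr4 had 8.06, 9.23 and 9.24 in transient and 6.78, 6.89 and 7.5 in telogen epidermis, where its difference was 1.78 ± 0.36 (limma adjusted p = 0.0581) and the interaction 1.77 ± 0.48 (adjusted p = 0.0835). Corin was weak in epidermis, with 0.62, 3.75 and 4.31 in transient and -2.73, -0.32 and 1.32 in telogen arrays (interaction 2.26 ± 1.47, limma adjusted p = 0.463). Moxd1 was high in both epidermal groups, with means of 9.56 in transient and 9.89 in telogen arrays, and its fall was larger in dermis (interaction -2.9 ± 0.55, adjusted p = 0.0162).

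**Figure D5:**
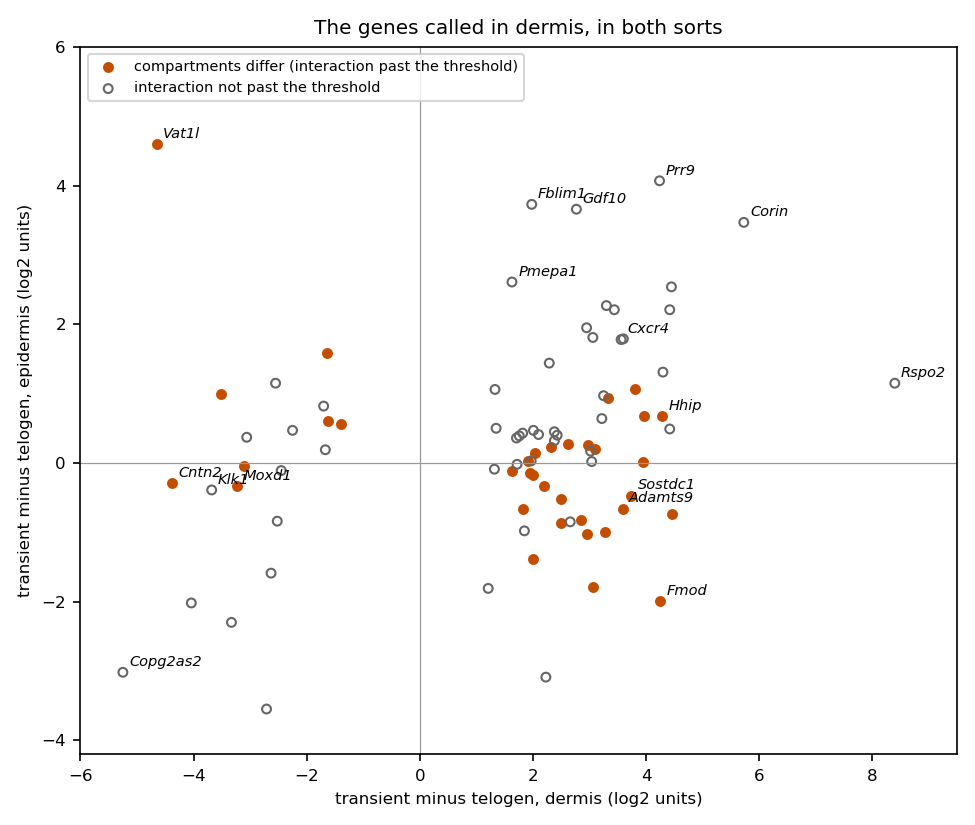
Transient minus telogen difference in dermis (horizontal) and in epidermis (vertical), in log2 units, for the 86 named genes that passed in dermis; filled points passed the test of the difference between compartments. Rises spread along the horizontal axis with epidermal differences near 0 (median 0.32), and Gdf10, Prr9, Pmepa1 and Fblim1 also rose in epidermis, Gdf10 and Prr9 only with transient epidermal mouse 4 in the fit.

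Named probe sets of a gene gave the same direction. Among the 86 genes 29 have more than 1 named probe set. The 46 other probe sets all had the sign of the first, and 24 of them, from 15 genes, passed on their own. Only probe sets in the authors' deposited tables of regulated genes were named. Any others of these genes were not counted, so the agreement in sign was in part set by that choice. Of the 86 genes 78 are listed for this pair in the authors' deposited table. Because genes were named through the authors' tables, this share was in part set by the naming. Over all 220 calls it was 65.0%. Across 15 alternative settings 13 genes passed in all but the 2 that called no probe set, and Corin, Cxcr4, Rspo2, Col11a1, Frzb, Plod2 and Apela are among them. Another 46 genes, Wif1, Dkk2, Gdf10, Mgp and Rgs2 among them, passed in a minority of the settings run for them, and in these settings no gene of the 86 changed direction.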

How the data were processed

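RNA of sorted cells was amplified and hybridized to Affymetrix arrays, per the labels. Per the submitters' processing notes RMA and MAS5 were used, in roles not given in the sources used here. The deposited values are log2 signals whose linear mean, after trimming 2% at each end, is 100 in every array, as MAS5 scaling gives. The authors' deposited tables of regulated genes give a linear ratio (fold change) and an identifier per probe set. Those identifiers, looked up in RefSeq (GRCm38.p6, for names), named 4560 genes: 6480 of 7285 listed probe sets have 1 gene, 267 several and 538 none. The probe set with the highest mean over the 12 dermal arrays stands for a gene.

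The 64 controls were left out of 45101 probe sets. Values were used as deposited, with no pseudocount, in limma 3.58.1 (R 4.3.3): a mean for each of the 4 dermal states over 12 arrays, default eBayes, Benjamini-Hochberg adjusted p under 0.05. The interaction used 24 arrays. Members, gene lists and comparisons were chosen with earlier results of these data known. Genes named are the 20 highest and 10 lowest called, called list members, up to 3 uncalled members per list without overlap, gate and transgene genes and the interaction's extremes; Frat2, Sema3g, Coch, Trib2, Kif26b, Pkdcc, Pmepa1 and Fblim1, and some uncalled list members given by their difference, were chosen after their values were seen. One of the 20 highest is not reported here, but stays in the counts over all genes. With 3 arrays per group precision is limited: in simulated data 3%, 37.3% and 60.6% of changes of 1, 2 and 4 log2 units were called, with 3 false among 70 calls. The simulation changed 67, 67 and 66 of 45037 probe sets by these sizes. The share called depends on how many probe sets change, so it may differ in the real data. Same-numbered mice of the groups had correlations of deviations of 0.003 to 0.021 and were not treated as pairs. Alternatives were normalization, a filter on dim probe sets, an offset, the arrays in the fit, the variance model, array weights, a replicate block and leaving out arrays. Python 3.11.15, pandas 2.3.3 and matplotlib 3.10.9 made tables and figures.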

Additional observations from a re-analysis of the deposited data

Results flagged for a closer look

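The transient minus telogen difference itself differed between dermis and epidermis for 189 named genes, by the limma interaction over all 24 arrays with an adjusted p under 0.05, and 35 of them had passed in dermis. Given here are 28 of the 189: the 21 that passed in dermis and that the rule for named genes takes for another reason as well, and those with the highest and lowest interaction values. Of the 28, 17 passed without transient epidermal mouse 4, whose array stood apart. Among those that had passed in dermis, Mgp, Slc5a3, Prx, Nav3, 4930544F09Rik and 4833406M21Rik did not pass without it (limma adjusted p = 0.0534 to 0.0872). Values below are the dermal minus the epidermal difference in log2 units. Among matrix and secreted genes it was 6.24 for Fmod, 4.25 for Adamts9, 4.2 for Sostdc1, 3.61 for Hhip, 3.39 for Cpxm2, 2.72 for Col11a1, 2.34 for Mgp and -4.49 for Col4a3. The Fmod value depends on its probe set, whose epidermal difference was -1.99. Its other named probe sets had epidermal differences of -1.15 to 1.14 and dermal differences of 4.12 to 6.02. Among genes of other roles it was 4.27 for Dusp4, 3.38 for Ednrb, 2.5 for Rgs2, 2.38 for Chst2, 2.18 for Slc5a3 and 2.09 for Prx. The cytoskeletal gene Nav3 gave 3.91, and 2 genes known only by clone names, 4930544F09Rik and 4833406M21Rik, gave 5.19 and 3.3. Among the genes that fell in dermis it was -2.9 for Moxd1, -3.05 for Nuf2, -4.09 for Cntn2 and -9.24 for Vat1l, where the transient dermal mean of Vat1l, -2.07, is under their 5th percentile, so that its size cannot be relied on.

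The remaining genes described here, with the highest and lowest values, are among the 154 that passed the test of the difference without passing in dermis; without transient epidermal mouse 4 B130021B11Rik and Ctsw passed (limma adjusted p = 0.0267 and 0.0221) and the others did not (0.0502 to 0.0872). B130021B11Rik was bright in dermis, with means of 9.75 in transient and 10.36 in telogen arrays, while in epidermis they were 8.81 in transient and 2.84 in telogen arrays (5.96 ± 1.06, limma adjusted p = 0.0375, and 0.105 without that mouse), which gave -6.57. Ctsw, a protease of cytotoxic lymphocytes, averaged 1.49 in transient and 5.54 in telogen epidermis and 3.69 in transient and 1.19 in telogen dermis, and its value was 6.55. Hpgds, a prostaglandin D synthase, averaged 3.89 in transient and 6.27 in telogen epidermis, and its value was 5.24. The remaining values were 6.14 for Hpca, whose telogen dermal mean of -1.3 lies below the 5th percentile, -6.4 for E330013P04Rik, -6.96 for Agt, the angiotensin precursor, and -7.11 for the adhesion gene Cntnap2.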

How the results depend on the processing

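The 220 calls became 123 with quantile normalization, 133 with arrays centred on their median, 765 with dim probe sets left out, 863 with an offset of 16, 624 in a fit of all 24 arrays, 1114 with trend and robust eBayes, 107 with array weights, 0 with only the 6 arrays compared (4861 at an unadjusted p under 0.05) and 52 to 415 without single arrays, and the authors' deposited table lists 788. With a minimum difference of 1 log2 unit 220 passed. Of the 86 genes 48, 47, 80, 71, 86 and 45 remained with quantile normalization, centring, the offset, 24 arrays, trend and robust eBayes and array weights, and 17 without telogen mouse 2. The 27 list genes called became 18 with quantile normalization, 14 centred, 85 with dim probe sets left out, 92 with the offset, 0 with 6 arrays, 60 with 24 arrays, 115 with trend and robust eBayes, 16 with array weights and 7 to 34 without single arrays. The 446 interaction calls became 71 with only 12 arrays, 1176 with trend and robust eBayes and 216 to 928 without single arrays. The 380 epidermal calls became 162 without transient mouse 4. Vim turned from 0.13 to -0.15 with centred arrays, which moved the median of all probe sets from 0.13 to -0.15. The causes were not tested. Weak signal limits sizes near the 5th percentile.

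With the mouse number as a replicate block 0 probe sets were called in dermis (5388 at an unadjusted p under 0.05) and 0 list genes; these numbers pair no samples across the states. With the mouse as a block for both sorts of a state the interaction gave 532 calls.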
